A study of Mus musculus with 14 samples.

Results

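Proteasome subunit genes were examined in single cells sorted as haematopoietic stem cells from mouse bone marrow. The members were taken by name, as every gene of the 4 count tables whose symbol starts with Psma, Psmb, Psmc, Psmd, Psme, Psmf or Psmg, without symbols that contain -ps, and they numbered 49 of 25832 gene IDs. By the role of their products, 15 belong to the core, 17 to the cap, 5 to the immunoproteasome and 7 to assembly. Psme3, Psme4 and Psmf1 are other regulators, Psme2b is a close paralog of Psme2, and Psmc3ip shares the prefix but encodes a recombination protein that is no subunit. The cells came from MARS-Seq, a plate-based method that tags each captured transcript near its 3' end with a unique molecular identifier (UMI), on 4 plates named 350W to 353W.

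Cells whose names in the tables start with KO were compared with cells whose names start with WT, with 96 wells of each on every plate. The study compares animals with a knockout of Phf19, which encodes a protein associated with the Polycomb repressive complex, with floxed controls. The labels of the plates give only the sort (HSC, CD150+CD48-) and no genotype, age or sex, and whether WT means the floxed controls is not stated. The deleting Cre, the number of animals and any pooling are not stated in the labels. P-values of KO against WT cells therefore measure the spread of their difference over plates, which may be technical. KO cells filled wells 97 to 192 and WT cells wells 1 to 96 of every plate, so genotype and well position cannot be told apart. Phf19 itself had 0, 2, 1 and 0 UMIs in KO cells and 1, 0, 0 and 5 UMIs in WT cells of plates 350W to 353W, and these few counts, read near the 3' end and perhaps outside the deletion, check no label.

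Of 768 wells, 716 held 500 or more UMIs and were kept, 335 of them KO and 381 WT cells, and no cell name was shared between plates. Their counts were summed per plate and genotype, giving totals of 220821 to 382307 UMIs in KO cells and 311886 to 510791 UMIs in WT cells. The median per cell was 2230, 3120, 2552.5 and 4483.5 UMIs in KO cells against 3077, 3806, 2920 and 5006 UMIs in WT cells. Levels are shares of the UMIs of a sum, scaled to the usual counts-per-million unit (CPM). One molecule gives 1 tag whatever its length, so levels are not divided by length, although genes can differ in how well their 3' ends are captured. The 15 stem cell markers summed to 1682 to 2130 CPM in KO and 1645 to 2228 CPM in WT cells. That sum hides markers that moved apart between plates. Cd34 was at 22.4 to 41.6 CPM in 350W and 351W but 245 to 364 CPM in 352W and 353W in either genotype. Mllt3 instead was at 124 to 195 CPM in 350W and 351W and 45.3 to 66.1 CPM in 352W and 353W in either genotype. Slamf1 encodes the CD150 of the sort. But it had only 1, 5, 1 and 0 UMIs in KO and 4, 16, 0 and 0 UMIs in WT cells. The 6 markers of multipotent and lymphoid progenitors were at 64.0 to 113 CPM in KO and 70.5 to 99.0 CPM in WT cells of plates 350W and 351W, against 782 to 1023 CPM in KO and 764 to 960.0 CPM in WT cells of 352W and 353W. The 9 measured B cell markers reached 8441 CPM in KO and 11775 CPM in WT cells of 352W, nearly all of it from the immunoglobulin genes Ighm, at 4773 CPM in KO and 7092 CPM in WT cells, and Igkc, at 3605 CPM in KO and 4561 CPM in WT cells. Cd79b, another marker of that list, was instead highest in 351W, at 83.2 CPM in KO and 66.0 CPM in WT cells. Cd48, of the multipotent and lymphoid list, encodes the CD48 that the sort selects against. It had 1, 0, 49 and 11 UMIs in KO and 0, 0, 62 and 24 UMIs in WT cells of plates 350W to 353W. Those counts go against the CD48- of the label on 352W and 353W, although transcripts are not the surface protein. The sums of a plate therefore describe cells that differ between plates, and in sums fewer cells of a type and less RNA per cell cannot be told apart.

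The proteasome degrades proteins that carry ubiquitin chains. Its core is a barrel of outer rings built from alpha subunits (Psma genes) and inner rings built from beta subunits (Psmb genes), with proteolytic sites on Psmb5, Psmb6 and Psmb7. The cap binds ubiquitin chains, removes them and threads the substrate into the barrel by means of the Psmc ATPases. In cells of the immune system, or under interferon, Psmb8, Psmb9 and Psmb10 take the places of Psmb5, Psmb6 and Psmb7 in new particles, which changes the peptides made for display on major histocompatibility complex class I molecules, and Psme1 and Psme2 form an activator ring induced alongside them. Blood stem cells are known to be sensitive to the balance of protein synthesis and breakdown.

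The 250 bases before the start of transcription are shown for 2 pairs of genes that encode alternative subunits for the same position in the core, since the share of each pair is described next. They come from RefSeq's annotation of build GRCm38.p6 and read 5' to 3' towards the start. Capitals mark a match, on either strand, to TGACNNNGC, the core of the antioxidant response element bound by NFE2L1 and NFE2L2. A core of the interferon-stimulated response element, GAAA followed by any 2 bases and GAAA again, was also searched on both strands and was not found in these 4 windows. The Psmb8 window is chr17:34197945-34198194 on the plus strand, the Psmb5 window chr14:54617996-54618245 on the minus strand, the Psmb9 window chr17:34187331-34187580 on the minus strand and the Psmb6 window chr11:70525107-70525356 on the plus strand. The start of Psmb9 lies 225 bases from that of Tap1, a peptide transporter gene on the other strand, so that window is shared by both genes.
Psmb8: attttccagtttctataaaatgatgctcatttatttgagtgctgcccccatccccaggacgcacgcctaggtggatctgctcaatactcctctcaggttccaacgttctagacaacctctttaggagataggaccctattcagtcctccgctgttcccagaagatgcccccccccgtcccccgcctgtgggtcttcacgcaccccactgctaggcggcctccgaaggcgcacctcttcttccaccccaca
Psmb5: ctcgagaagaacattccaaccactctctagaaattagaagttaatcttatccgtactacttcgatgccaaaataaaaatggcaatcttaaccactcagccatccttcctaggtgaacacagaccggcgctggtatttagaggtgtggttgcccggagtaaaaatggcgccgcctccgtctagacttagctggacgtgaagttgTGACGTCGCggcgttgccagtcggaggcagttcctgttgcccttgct
Psmb9: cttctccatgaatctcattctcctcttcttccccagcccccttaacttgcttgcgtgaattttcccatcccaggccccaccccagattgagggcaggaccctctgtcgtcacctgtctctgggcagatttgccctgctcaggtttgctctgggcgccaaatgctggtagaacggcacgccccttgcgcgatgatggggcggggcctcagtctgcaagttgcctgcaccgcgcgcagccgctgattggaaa
Psmb6: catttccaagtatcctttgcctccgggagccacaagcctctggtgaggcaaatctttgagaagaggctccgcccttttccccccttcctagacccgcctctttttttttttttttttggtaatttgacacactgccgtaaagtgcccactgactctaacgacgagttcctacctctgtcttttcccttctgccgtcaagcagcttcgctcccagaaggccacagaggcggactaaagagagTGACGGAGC

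Psmb5 held TGACGTCGC from 47 bases before the start, Psmb6 held TGACGGAGC from 9 bases before it, and Psmb8 and Psmb9 held neither motif. Of the 49 members 41 had a promoter in the table, with 44 promoters in all. TGACNNNGC lay in 11.4% of these against 10.2% of all 32851 promoters. The core of the interferon-stimulated element lay in 3 of the 44, or 6.82%, against 2.98% of all. It was found in 0 of the 6 promoters of immunoproteasome genes. No window shown held more than 1 match, so no matches overlap there. A match is a description of the letters and says nothing on binding. A missing match does not show that an element is absent, since variants of these cores and bases outside the windows were not searched.

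Psmb8, a catalytic subunit of the immunoproteasome, had the highest mean over the 8 sums. The sorted cells carried more UMIs of inducible than of constitutive catalytic subunits in every sum. Psmb8 was at 316, 707, 729 and 539 CPM in KO cells and 362, 647, 743 and 517 CPM in WT cells of plates 350W to 353W. Its constitutive counterpart Psmb5 was at 67.7, 99.2, 99.6 and 123 CPM in KO cells and 131, 71.0, 104 and 157 CPM in WT cells. The ranges of KO and WT cells overlapped for both genes. Psmb8 was the highest member in KO and WT cells of 351W and 352W, Psma7 in those of 350W and Psmb4 in those of 353W. The log2 fold change of KO over WT cells was 0.01 ± 0.0976 (SE) for Psmb8 (edgeR adjusted p = 0.993) and -0.21 ± 0.226 (SE) for Psmb5 (edgeR adjusted p = 0.929). The Psmb5 value was -0.02 without 350W and -0.42 without 351W.

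Psmb8, Psmb9 and Psmb10 together made up 63.0%, 70.9%, 74.0% and 68.8% of the UMIs of the 6 catalytic genes in KO cells, and 63.2%, 74.3%, 74.2% and 66.2% in WT cells. The exact 95% binomial intervals, which cover counting error only, ran from 55.5% to 70.0% in KO cells of 350W, the sum with the fewest of these UMIs, and overlapped between genotypes on every plate. The KO minus WT difference averaged -0.313 percentage points over the 4 plates (SD 2.50), smaller than its spread. In both genotypes the share was lowest or second lowest in 350W and 353W and higher in 351W and 352W.

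The pairs were not alike. Psmb8 held 81.4% to 88.0% of the UMIs of its pair in KO cells and 73.4% to 90.1% in WT cells. Psmb10, which replaces Psmb7, held 64.9% to 79.0% of its pair in KO cells and 56.6% to 79.6% in WT cells. Psmb9, which replaces Psmb6, held 34.1% to 51.8% of its pair in KO cells and 39.8% to 53.6% in WT cells. Psmb6 was the higher one in 6 of 8 sums and Psmb9 in KO and WT cells of 353W. On 353W the exact intervals ran from 44.0% to 59.5% in KO and 46.3% to 60.7% in WT cells. The order of the pair there lies within counting error. These are shares of transcripts, not of assembled particles. Reads of near-identical copies limit the constitutive side. Psmb6-ps2 was given 74, Psmb6-ps 24 and Psmb5-ps 30 UMIs beside 563 UMIs of Psmb6 and 297 UMIs of Psmb5.

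**Figure D1:**
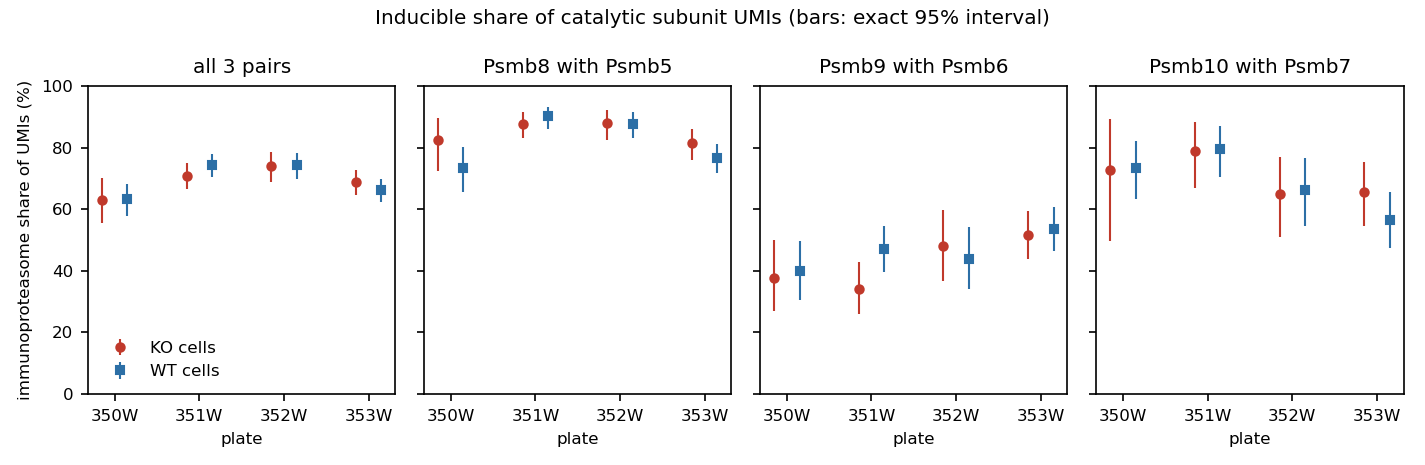
Share of UMIs from the inducible subunit (vertical axis, percent) in KO cells (circles) and WT cells (squares) of each plate (horizontal axis), for all catalytic genes and for each pair; bars are exact 95% intervals. Psmb8 holds 73.4% or more of its pair in every sum and Psmb9 between 34.1% and 53.6% of its pair.

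Among the activator genes, Psme1 was at 334, 384, 186 and 324 CPM in KO cells and 327, 348, 227 and 403 CPM in WT cells. Both genotypes had their lowest value in 352W, and their ranges overlapped. Psme2 was at 118 to 189 CPM in KO cells and 113 to 170.0 CPM in WT cells. Psme2b had 0.643 to 1 UMI per UMI of Psme2 in KO cells and 0.687 to 0.981 in WT cells, and because the genes are close copies the split of reads between them is uncertain.

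The core genes summed to 1858, 1766, 1494 and 2239 CPM in KO cells against 2046, 1918, 1571 and 2326 CPM in WT cells. The KO sum was the lower one on 4 of 4 plates, by a mean log2 ratio of -0.10 (SD 0.039 over plates), while the ranges of the genotypes overlapped because plates differed more. The cap genes summed to 803, 1593, 761 and 1188 CPM in KO cells and 1061, 1548, 998 and 1179 CPM in WT cells, lower in KO cells of 2 plates. The cap sums leave out Sem1, a lid subunit gene outside the naming rule that is given below. Its mean over the 8 sums was 427 CPM, against 118 CPM for Psmd4, the highest cap member. The immunoproteasome genes summed to 1037, 1542, 1372 and 1397 CPM in KO cells and 1215, 1591, 1382 and 1409.6 CPM in WT cells. They were also lower in KO cells on 4 of 4 plates, by a mean log2 ratio of -0.07 (SD 0.104). Most of that mean came from 350W, with log2 ratios of -0.23 there, -0.05 in 351W, and -0.01 in both 352W and 353W. The assembly genes summed to 428, 307, 475 and 403 CPM in KO cells and 366, 319.7, 425 and 417 CPM in WT cells, a mean log2 ratio of 0.07 (SD 0.147). No test was made on sums of chosen genes. KO cells also had fewer UMIs per cell on 4 of 4 plates. Summed, the 9 measured monocyte and dendritic cell markers were lower in KO cells on 4 of 4 plates too. Their sums were 776, 633, 380.4 and 484 CPM in KO cells and 949, 741, 582 and 681 CPM in WT cells. Itgax was at 0 in 7 of 8 sums. Cd74 of that list was at 284, 198, 109 and 212 CPM in KO and 391, 244, 205 and 347 CPM in WT cells. Lyz2 was instead higher in KO cells of 351W to 353W, at 83.2, 63.4 and 115 CPM against 76.1, 40.9 and 74.4 CPM. The B cell markers were lower in KO cells of 350W, 352W and 353W. The part of these in the sums was not tested.

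**Figure D2:**
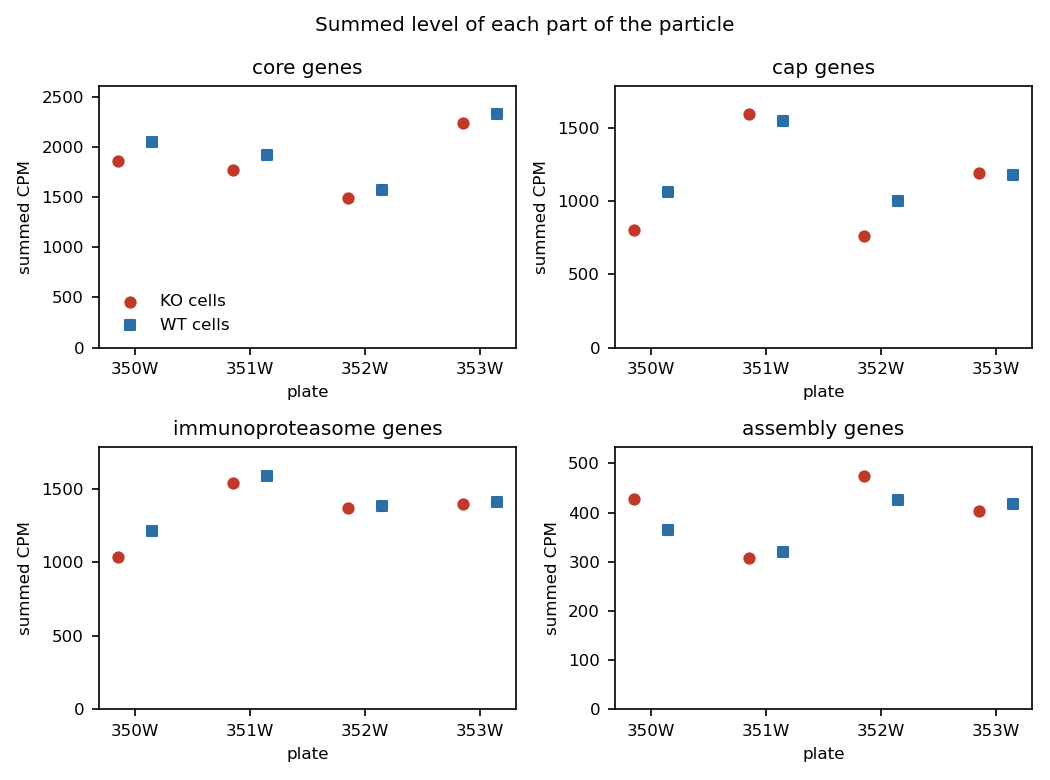
Summed CPM of the core, cap, immunoproteasome and assembly genes (vertical axes, from 0) in KO cells (circles) and WT cells (squares) of each plate. The cap genes range from 761 to 1593 CPM over the KO sums. The core and immunoproteasome genes are lower in KO cells on each plate, by mean log2 ratios of -0.10 and -0.07.

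All members together made up 0.431%, 0.560%, 0.432% and 0.557% of the UMIs of KO cells and 0.494%, 0.568%, 0.459% and 0.569% of those of WT cells. The median KO cell held UMIs of 6, 10, 7 and 13 different members and the median WT cell of 9, 13, 9 and 15. These numbers were not thinned, and KO cells had the lower median of UMIs per cell on every plate. The part of depth in them was not tested. A cell without any member UMI was found 2 times among KO cells and 1 time among WT cells, all on plate 352W. A single gene was seen in fewer cells. Psmb8 had a UMI in 39.1% to 78.8% of KO cells and 55.8% to 84.4% of WT cells, and after thinning to 1000 UMIs a cell in 22.1% to 48.9% of KO and 28.3% to 46.4% of WT cells. Thinning left out 18 KO and 4 WT cells. No sorted cell type here should lack the particle, but Psma8, whose product replaces Psma7 in the testis, gives a low level for comparison, with a UMI in 0% to 3.75% of KO and 3.13% to 3.16% of WT cells. The 0 of 74 KO cells of 352W allow a share of up to 4.05% of cells with a UMI, taken as 3 cells of the total, which is no limit on cells that express the gene.

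No member was called between KO and WT cells. Of the 49 members, 45 passed edgeR's filter on low counts and were tested in a quasi-likelihood model with the plate as a block, and 0 passed a Benjamini-Hochberg adjusted p of 0.05 over all genes, against 0.0917% of the 6541 genes tested. At an unadjusted p below 0.05 edgeR gave 3 members, or 6.67% against 6.08% of all genes. After adjustment DESeq2 called 0 members, but only 1 gene in all. The model without the plate block called 0 members and 0 genes in all. The median log2 fold change of the tested members was -0.07, against 0.00 over all genes, with 19 values above and 26 below 0. By part, 6 core values were above and 8 below 0, 6 cap values above and 11 below, 2 immunoproteasome values above and 3 below, and 4 assembly values above and 2 below. Psma8, Psmc3ip, Psmd10 and Psme3 had too few counts to be tested. The median SE was 0.256 on the log2 scale.

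**Figure D3:**
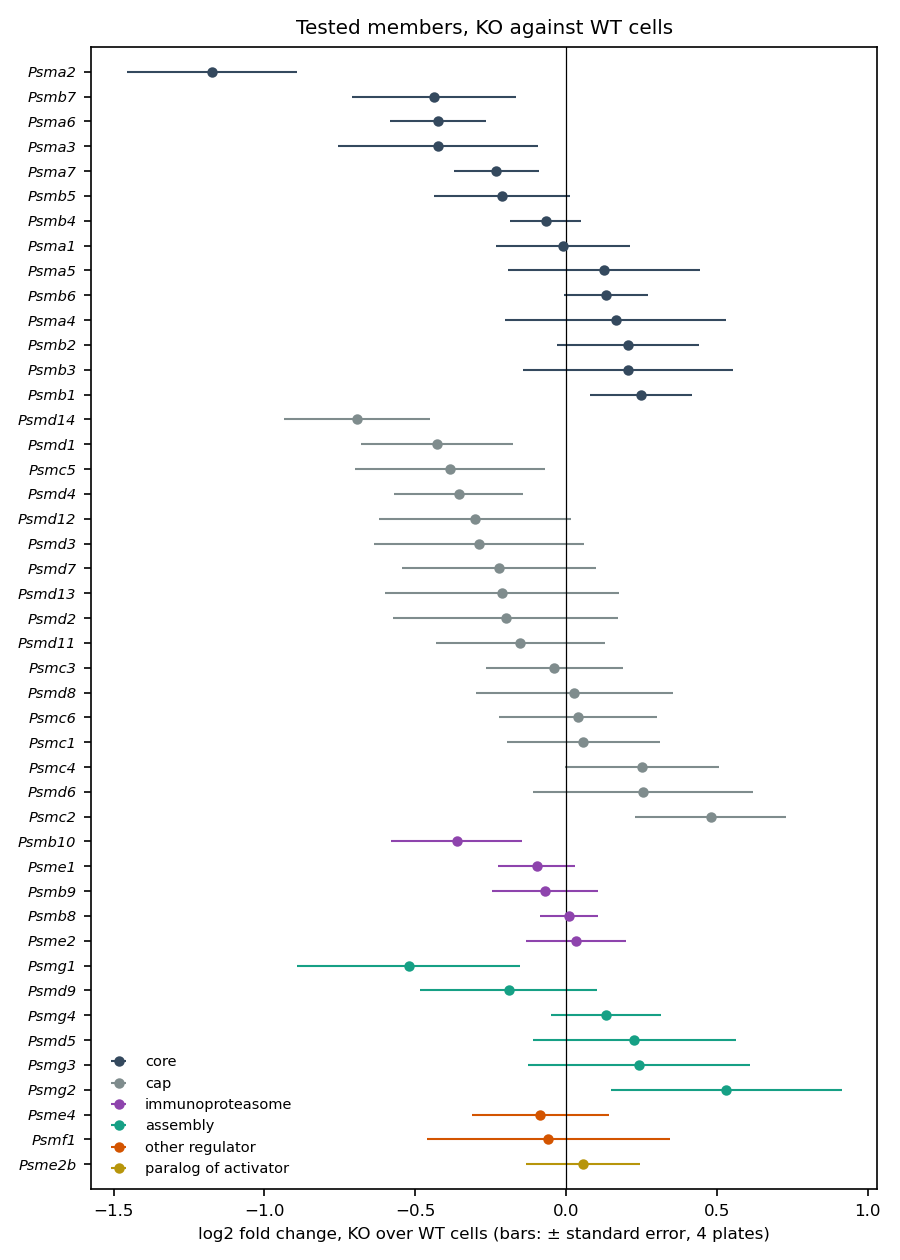
Log2 fold change of KO over WT cells (horizontal axis) with its standard error for the 45 tested members, coloured by part. Values run from -1.17 for Psma2 to 0.53 for Psmg2, and none passed the adjusted threshold.

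Psma2, an alpha ring subunit, had the smallest p of the members. It was at 49.6, 15.99, 40.8 and 44.5 CPM in KO cells and 77.0, 48.2, 129 and 90.1 CPM in WT cells, from 11, 5, 9 and 17 UMIs in KO and 24, 19, 41 and 46 UMIs in WT cells. KO cells were lower on 4 of 4 plates, and the ranges overlapped slightly, since KO cells of 350W lay above WT cells of 351W. The log2 fold change was -1.17 (SE 0.283, edgeR adjusted p = 0.309), and it ran from -1.35 to -0.97 over 13 alternatives, with adjusted p from 0.161 to 1.0. One WT cell of 352W held 10 of the 41 UMIs there. Psma2 had a UMI in 4.49% to 18.8% of KO cells and 11.6% to 31.6% of WT cells, and after thinning in 1.71% to 4.67% of KO and 4.05% to 9.21% of WT cells, lower in KO cells on 4 of 4 plates.

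For 2 members every KO sum lay below every WT sum. Psma6, another alpha ring subunit, was at 135, 118, 145 and 157 CPM in KO cells and 173, 170.0, 183 and 217 CPM in WT cells. The difference was -0.42 ± 0.159 (SE) in log2 units (edgeR adjusted p = 0.721). Psmd14, the lid enzyme that cuts ubiquitin chains off the substrate, was at 58.6, 64.0, 31.7 and 65.4 CPM in KO cells and 83.4, 114, 66.1 and 94.0 CPM in WT cells. The difference was -0.69 ± 0.242 (SE) in log2 units (edgeR adjusted p = 0.702). These 2 are 4.44% of the tested members, against 0.826% of all genes tested whose KO sums lay below all WT sums, and 0 members lay the other way, against 0.596% of all genes. Psma2, Psma6, Psmd14, Psmd4 and Psmg1, or 11.1% of the tested members, were lower in KO cells on all plates, against 7.75% of all genes, and 0 members were higher on all plates, against 7.83%.

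Among the other cap genes, Psmd4, a receptor for ubiquitin chains, was at 94.7, 134, 95.1 and 81.1 CPM in KO cells and 109, 145, 205 and 84.2 CPM in WT cells. Most of its difference lay on 352W, and the log2 value of -0.36 (edgeR adjusted p = 0.838) was -0.10 without that plate. Psmd1, a scaffold of the base, differed by -0.43 ± 0.253 (SE) in log2 units (edgeR adjusted p = 0.838). Psmc2, an ATPase of the base, lay the other way, at 36.1, 166, 58.9 and 91.6 CPM in KO cells and 48.1, 96.4, 44.1 and 60.7 CPM in WT cells, a difference of 0.48 ± 0.251 (SE) in log2 units (edgeR adjusted p = 0.823). Psmc3 had a value of -0.04 and the lid subunit gene Psmd8 of 0.03, and Psmd8 changed sign with the plates used, from -0.38 without 353W to 0.51 without 350W.

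The assembly genes encode chaperones that build the core and the base and do not stay in the finished particle. Psmg4, a core chaperone, was their most abundant member at 140, 109, 222 and 188 CPM in KO cells and 167, 134, 151 and 145 CPM in WT cells, a difference of 0.13 on the log2 scale (edgeR adjusted p = 0.954). KO cells were above WT cells in 352W and 353W and below them in 350W and 351W. Psmd9, a base chaperone, was at 38.4 to 63.4 CPM in KO and 38.1 to 62.6 CPM in WT cells, and Psmg3, a core chaperone, at 15.99 to 63.1 CPM in KO and 20.3 to 88.1 CPM in WT cells. Psme4, an activator of the nucleus, was at 45.1 to 128 CPM in KO and 48.1 to 124 CPM in WT cells, Psmf1, an inhibitor in vitro, at 9.02 to 47.1 CPM in KO and 16.03 to 45.0 CPM in WT cells, and Psme3, the gamma activator, at 4.51 to 52.3 CPM in KO and 15.2 to 35.2 CPM in WT cells.

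**Figure D4:**
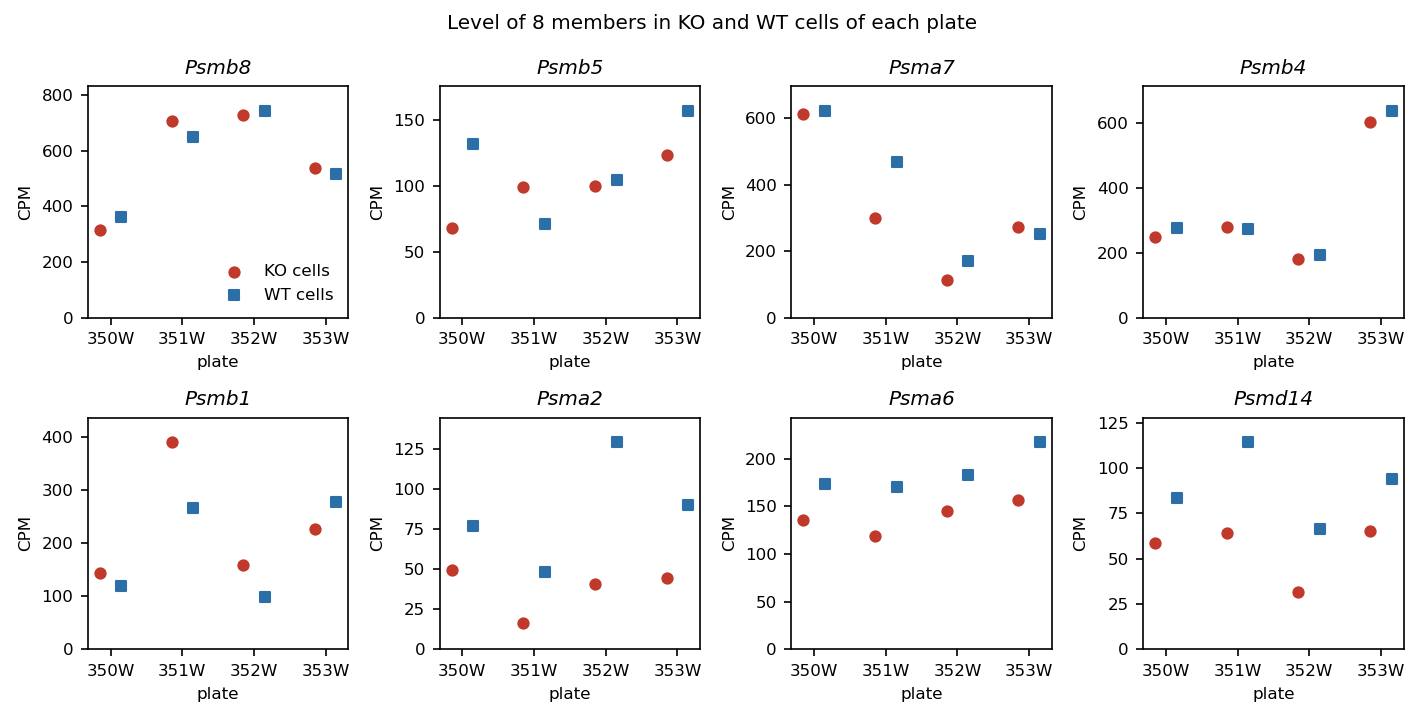
CPM (vertical axes, from 0) of 8 members in KO cells (circles) and WT cells (squares) of each plate. KO and WT values lie close within a plate for Psmb8 and Psmb4, while every KO value of Psma6 and Psmd14 lies below every WT value.

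Plates differed more than genotypes. When the plate terms of the same edgeR model were tested, a test added after the values were seen, 18 of the 45 members, or 40%, passed an adjusted p of 0.05, against 27.3% of all genes tested. Those p-values set plate differences against the spread of the KO and WT sums within plates, not against replicates of a plate. The 2 sums of a plate share the plate and its table, while the animals behind its cells are not stated. Animals, sort and library therefore cannot be told apart in these differences. By part, 7 of 14 core genes, 7 of 17 cap genes, 2 of 5 immunoproteasome genes and 1 of 6 assembly genes passed.

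Psmb4, a beta ring subunit without a catalytic site, was at 248, 278, 181 and 604 CPM in KO cells and 276, 274, 192 and 638 CPM in WT cells. Plate 353W stood above the others in both genotypes (edgeR adjusted p = 1.33e-06), and without it the difference between plates was not called (adjusted p = 0.345). On 353W a Psmb4 UMI was found in 85% of KO and 91.6% of WT cells, and after thinning in 43.1% of KO and 46.6% of WT cells, against 12.7% to 20.4% of thinned cells of either genotype elsewhere, so the counts were spread over cells. Psma7, an alpha ring subunit, was at 613, 301, 113 and 272 CPM in KO cells and 622, 469, 170.0 and 251 CPM in WT cells (edgeR adjusted p = 7.21e-06 between plates). It was highest in 350W and lowest in 352W, a ratio of 4.22 between these plates. Thinned cells with a Psma7 UMI were 42.4% of KO and 42.4% of WT cells in 350W, and 9.12% of KO and 12.2% of WT cells in 352W.

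Psmb8 ran the other way from Psma7 on these plates, with 343 CPM in 350W and 737 CPM in 352W over both genotypes (edgeR adjusted p = 1.78e-05). Psmb1, a beta ring subunit, was at 144, 390.2, 158 and 228 CPM in KO cells and 119, 266, 97.6 and 278 CPM in WT cells (edgeR adjusted p = 8.93e-04 between plates). Psma7, Psmb1 and Psmb8 were called between plates in each of 11 alternatives. Psma4 was rare on 1 plate, with 0 UMIs in KO cells, which allows up to 9.6 CPM, and 20.3 CPM in WT cells of 351W, against 68.0 to 99.6 CPM in KO and 47.0 to 77.0 CPM in WT cells of the other plates (edgeR adjusted p = 0.00563). Without 351W its call was lost (adjusted p = 0.209). Psma1 was highest in 352W, at 168 CPM in KO and 154 CPM in WT cells, against 45.7 to 92.0 CPM in KO and WT cells elsewhere, and its call was lost without 352W (adjusted p = 0.371).

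Of the 7 cap genes called between plates, 5 were highest in 351W. Psmd1 reached 141 CPM in KO and 155 CPM in WT cells of 351W, against 36.2 to 49.6 CPM in KO and 34.6 to 89.8 CPM in WT cells of the others, and Psmc3 189 CPM in KO and 152 CPM in WT cells, against 67.9 to 83.7 CPM in KO and 44.1 to 116 CPM in WT cells. Neither was called without 351W (adjusted p = 0.354 for Psmd1 and 0.339 for Psmc3), and without that plate 9 of 42 tested members were called, against 20.6% of all genes. Psmb6, Psmb9 and Psmb10 were not called between plates (adjusted p = 0.284, 0.202 and 0.627). Markers of multipotent and lymphoid progenitors and the immunoglobulin genes were higher in 352W and 353W, as given above, and their part in these differences was not tested.

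**Figure D5:**
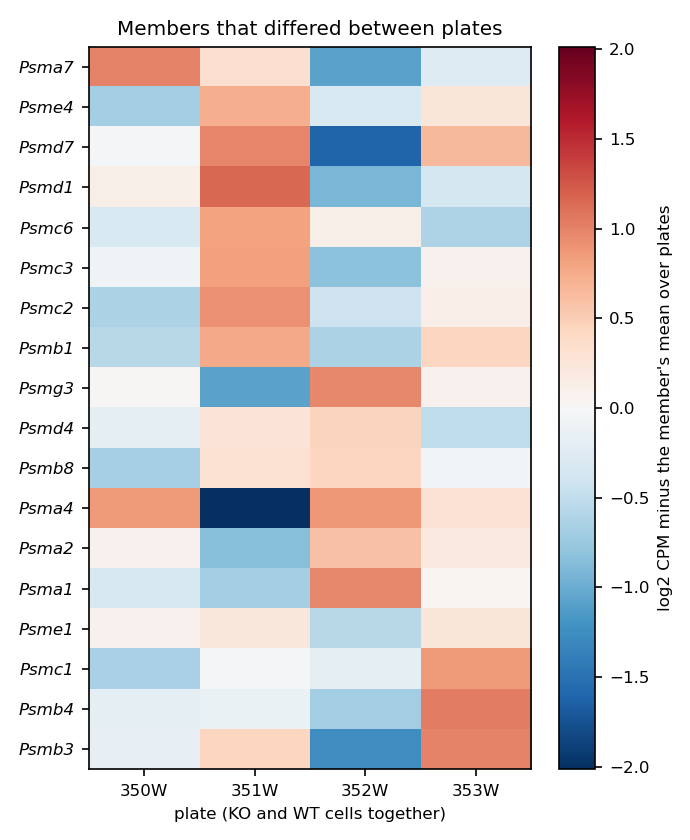
Level of the 18 members called between plates (rows), as log2 CPM of KO and WT cells together minus the member's mean over the 4 plates (columns, colour scale). Psmd1, Psmc2, Psmc3 and Psmc6 are highest in 351W, Psmb4 in 353W and Psma7 in 350W.

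Genes that work with the proteasome but lie outside the naming rule were read from lists made with earlier results of these data known, and 0 of them were called between KO and WT cells, against 0.0917% of all genes tested, of which 3226 values lay above and 3315 below 0. Of 11 tested proteasome partners 6 values were above and 5 below 0, of 3 tested transcription factors of proteasome genes 2 above and 1 below, of 10 ubiquitin and activating enzyme genes 4 above and 6 below, and of 8 unfoldase and extraction genes 5 above and 3 below. Of 9 tested genes for peptide transport and loading 2 values were above and 7 below 0, and of 10 interferon response genes 5 above and 5 below. The medians of these lists lay between -0.04 and 0.15 on the log2 scale.

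Sem1, a small lid subunit, was at 397, 473, 231 and 583 CPM in KO cells and 359, 596, 280.1 and 499 CPM in WT cells. Pomp, the chaperone that completes the core, was at 194, 262, 226 and 199 CPM in KO cells and 112, 279, 161 and 178 CPM in WT cells, a difference of 0.27 on the log2 scale (edgeR adjusted p = 0.838) that was 0.44 without 351W. Ubb, a polyubiquitin gene, was higher in KO cells on 4 of 4 plates, at 803, 867, 1001 and 968 CPM in KO cells and 638, 850.0, 840.4 and 681 CPM in WT cells, with a log2 fold change of 0.28 that did not pass adjustment (SE 0.0937, edgeR adjusted p = 0.647). Rps27a, which encodes a ubiquitin fusion, Nfe2l2 and Stat3, factors named for proteasome gene control, and Vcp and Ubxn1, an unfoldase and its adaptor, had log2 fold changes of -0.03, 0.02, -0.05, 0.20 and 0.09, with SEs of 0.132, 0.244, 0.274, 0.200 and 0.262. With 1 plate left out, Nfe2l2 ran from -0.30 without 351W to 0.27 without 353W, and Ubxn1 from -0.18 without 350W to 0.48 without 351W. B2m, the light chain of class I molecules, was at 1642, 186, 2867 and 578 CPM in KO cells and 1949, 403, 3163 and 1124 CPM in WT cells, lower in KO cells on 4 of 4 plates. The difference of -0.54 ± 0.125 (SE) in log2 units (edgeR adjusted p = 0.276) was called without plate 352W (-0.70, adjusted p = 0.0012) and with no filter on genes, while it was -0.39 without 353W (adjusted p = 0.935) and -0.32 without the plate block (adjusted p = 1.0). H2-K1, a class I heavy chain gene, had a log2 fold change of -0.03, and the interferon-induced genes Ifitm1 and Ifitm3 of 0.05 and -0.02.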

How the data were processed

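MARS-Seq of 4 plates was used. The authors deposited raw counts, whole numbers for each gene in each cell, and the protocol named in the labels counts UMIs. The build GRCm38.p4 and FastQC are named in the submitters' processing notes; how reads were aligned and counted, and whether by strand, was not given in the sources used here. H3K27me3 region lists, in another build, were not used here, and the bulk libraries were not analysed here.

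Symbols were found for 25714 of 25832 IDs, and genes absent from a plate count as 0 there. Wells under 500 UMIs were left out, and doublets were not called. Sums of 220821 to 510791 UMIs per plate and genotype were tested by quasi-likelihood in edgeR 4.0.16, with TMM scaling and the filter of filterByExpr, under R 4.3.3, adjusted over all genes by Benjamini-Hochberg at 0.05. The plate was a block because both genotypes stand on the same plate and in the same table. A standard error (SE) was taken as the size of the log2 fold change over the root of its F statistic. DESeq2 1.42.0, other scalings, filters and plates left out were alternatives. Both models were tested on simulated data. Intervals are Clopper-Pearson at 95%, from scipy 1.17.1 in Python 3.11.15. Thinned shares are exact expectations at 1000 UMIs a cell.

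The members, the lists, the plate block and the alternatives were chosen with earlier results of these data known. Genes were named by rule: the 6 catalytic genes, the 3 highest members of each part, the 5 members of smallest p, the 2 highest tested genes of each pathway list, and Phf19; Psma1, Psma4, Psma8, Psmb1, Psmg1, Psmg2, Psme2, Psme2b and the marker genes were added after their values were seen. In RefSeq's annotation 14 members overlap another gene, 8 of them a coding gene, among them Psma4, Psmd1, Psme1, Psme4 and Psmf1, so their counts are uncertain.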

Additional observations from a re-analysis of the deposited data

Results flagged for a closer look

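In KO cells of plate 351W, Psmc3 at 189 CPM and Psmd1 at 141 CPM lay far above the other 3 KO sums. Of 60 groups of 4 plates looked at, these 2 stood apart, and chance alone gives about 1 in 20. Both genes were also highest in WT cells of that plate.

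Wells under 500 UMIs, which the comparisons left out, also held UMIs of proteasome genes, with 9, 19, 32 and 22 in plates 350W to 353W, more than the limit of 3 set by a count of 0. These were 0.617%, 0.700%, 0.413% and 0.484% of their UMIs, against 0.468%, 0.564%, 0.448% and 0.564% in kept wells, and each exact 95% interval of the left-out wells holds the kept value. Of the 52 wells left out, 49 were KO and 3 WT wells, while the kept wells were of both genotypes.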

How the results depend on the processing

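Of 94 alternatives for the main results, 81 kept a value within 1.5 times (counts) or within 1 SD over plates (other values). In all 13 alternatives 0 members were called between KO and WT cells, and their median log2 fold change ran from -0.09 to -0.02. The number of all genes called, 6 with the plate as a block, was 0 with no replicate block, 26 with no filter on genes, 1 with DESeq2, 2 when wells of over 100 immunoglobulin UMIs were dropped and 3 when all wells were kept. Leaving out 1 plate gave 2 to 12 genes, with 12 when 352W was dropped and 2 when 353W was. The cause was not tested. The block changed no call of a member. The KO minus WT difference in the inducible share was 3.12 percentage points as a mean over cells, 2.87 for Psmb8 with Psmb5 and -3.14 for Psmb9 with Psmb6, each with a larger SD than its size over plates, and -1.30 to 0.736 without a plate. Cells with a Psmb8 UMI averaged 39.0% over the 8 sums after thinning and 70.2% unthinned. Members called between plates, 18 of 45, against 27.3% of all genes, were 11 of 38 with sums thinned to the smallest total, against 27.3%, and 9 to 16 without a plate, against 19.0% to 21.9%. Among the named genes only B2m became called, as given above.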
